A study of Mus musculus with 7 samples.

Results

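The genes described here are those of the cytosolic ribosomal proteins, taken from the expression tables by name. An entry was a member if its symbol was Rpl or Rps followed by a digit, or Rplp0, Rplp1, Rplp2 or Rpsa. Symbols beginning with Rps6k, which are kinases, and symbols of pseudogenes holding "-ps" were left out. Of 108 matching names, 10 kinase and 8 pseudogene symbols were removed, which left 90 members of 25912 entries. By name, 54 members belong to the large ribosomal subunit and 36 to the small one. Of these, 77 are core ribosomal proteins, 11 are paralogs or retrocopies such as Rps27l, Rpl22l1, Rpl36al and Rps4l, and 2 were classed as not ribosomal proteins. The 11 include Rpl7l1, whose product acts in ribosome assembly. One of the 2 is Rps19bp1, whose product binds Rps19 and regulates the deacetylase SIRT1, and the other is the retrotransposed Rps23rg1. Both are counted in the small subunit by name.

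The study compared mouse oocytes at the germinal vesicle (GV) stage, arrested in prophase of the first meiotic division, with mature oocytes at metaphase II (MII) and with MII oocytes matured in the presence of BYBX, a small molecule that binds and stabilises RNA G-quadruplexes. Each library was made from 10 oocytes with Smart-seq2, which primes reverse transcription with oligo-dT. There were 2 GV libraries, labelled as untreated although the study's methods describe DMSO for control oocytes of both stages, 3 MII libraries with the solvent DMSO and 2 MII libraries with BYBX. Oocytes came from C57BL/6 females aged 4 weeks, 44 h after PMSG, a gonadotropin, and the MII groups were cultured for 16 h. The sample labels give no dose of BYBX. The study reports that fewer oocytes emitted the first polar body as the BYBX concentration rose, and that those reaching MII had abnormal spindles. The BYBX libraries are MII by label, so a difference in stage and an effect of BYBX cannot be told apart. Levels are FPKM, fragment counts corrected for transcript length and sequencing depth, that the authors scaled to a spike-in added in equal amount to each lysate. Lower abundance of an mRNA and a shorter poly(A) tail cannot be told apart with oligo-dT priming, and neither can less RNA per oocyte and fewer intact oocytes in a library.

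Ribosomal proteins assemble with ribosomal RNA into the large and small subunits of the ribosome. Their mRNAs are among the most abundant in growing cells and typically start with a run of pyrimidines, the 5′ terminal oligopyrimidine (TOP) tract, through which mTOR signalling and the protein LARP1 control their translation. Oocytes store mRNAs of this class during growth. During meiotic maturation transcription is silent, many stored mRNAs are deadenylated and degraded, and others gain a longer poly(A) tail through cytoplasmic polyadenylation elements in the 3′ UTR.

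The total of all FPKM differed between groups, from 402113 to 489569 in GV, 109732 to 127254 in MII with DMSO and 201482 to 246710 in MII with BYBX. The 10 oocyte markers, among them Gdf9 and Bmp15, were listed in every group and summed to 9825 to 12391 FPKM in GV, 2552 to 3228 in MII with DMSO and 5610 to 6331 in MII with BYBX. They did not all move together. From GV to MII with DMSO 9 were called lower, against 88.3% of all entries tested. Oosp1 had means of 1343 FPKM in GV, 1379 in MII with DMSO and 1435 in MII with BYBX. The summed FPKM of 12 granulosa and cumulus cell markers was 9.22 to 17.5 in GV, 2.10 to 2.47 in MII with DMSO and 3.59 to 3.84 in MII with BYBX, which moved with the groups, and its part in the results was not tested. Of these 12 markers 3 passed the filter, all called lower in MII with DMSO than at the GV stage and 1 higher with BYBX. Tnfaip6 was listed at 0 in GV and in MII with BYBX, and Amh and Cd44 in MII with DMSO. Erythrocyte markers summed to at most 1.20 FPKM. The 3 leucocyte markers summed to 1.12 to 1.72 FPKM in GV, 0.506 to 0.892 in MII with DMSO and 0.734 to 0.943 in MII with BYBX, nearly all of it Cd68, with Ptprc at 0 throughout, and their part in the results was not tested. From the steps among low values, 1 fragment was worth about 0.0563 and 0.0436 FPKM for a 1 kb transcript in the GV libraries, 0.0161 to 0.0182 in MII with DMSO and 0.0243 to 0.0272 in MII with BYBX. For the 76 tested members with an annotated transcript, this came to a median of about 1048 and 1348 fragments in GV, 44.8 to 66.5 in MII with DMSO and 728 to 784 in MII with BYBX. In MII with DMSO, 9 to 13 of these members rested on under 3 fragments.

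In GV oocytes the members ranged from undetected to 585.5 FPKM. The mean of the 2 GV libraries was at least 1 FPKM for 79 members, at least 10 for 68, at least 100 for 31 and at least 300 for 11. Rpl10, which joins the large subunit late in its maturation, was highest, with 588 and 583 FPKM. Next came Rps13 of the small subunit with 537 and 567, Rpl32 with 497 and 496, the retrocopy Rpl37rt with 449 and 464, and Rpl4 with 475 and 409.8. At the low end, Rpl21 and Rpl38 were listed at 0 in every library, although the ribosome contains both proteins. Among the tested members, the lowest GV means were 2.46 ± 0.363 FPKM for Rps7, 2.95 ± 1.22 for Rps15, 2.97 ± 1.15 for Rpl35a, 3.65 ± 0.826 for Rps29 and 7.12 ± 0.125 for Rpl8 (SD, n = 2).

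Many members have processed pseudogenes elsewhere in the genome, and the authors counted only uniquely mapped reads, which lowers the value of a gene with identical copies. Across the 86 members matched to GENCODE, a median of 60.0% of the 75-base windows of the chosen transcript was found in no transcript of another gene. The share was 8.14% for Rpl10, 21.4% for Rps13, 88% for Rps27l and 94.1% for Rpl32. Over these 86 members the share had a Spearman rho of -0.19 with the GV mean, and the 16 members with under 25% unique windows had a median of 66.2 FPKM in GV against 15.97 for the 23 with at least 75%. The 2 GV libraries were a median of 1.08 times apart for the 68 members of at least 10 FPKM, and more than 2 times apart for 3 of them, named here after their values were seen. Rps27 had 1.61 and 105.3 FPKM, its retrocopy Rps27rt 83.3 and 18.8, and Rpl7a 74.0 and 13.1. Of the windows of these 3 transcripts 1.48%, 9.67% and 22.6% were unique, and their levels are uncertain.

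**Figure D1:**
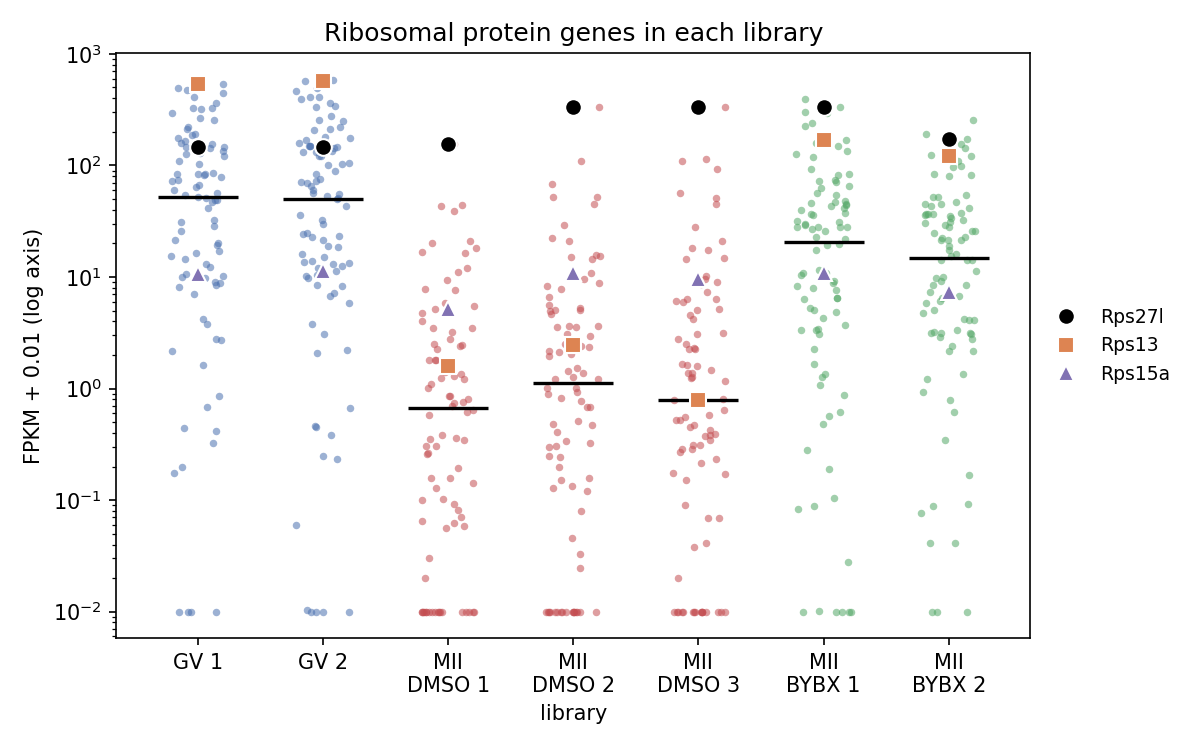
FPKM of each of the 90 members in each of the 7 libraries, plotted as FPKM + 0.01 on a log axis, with a horizontal bar at the median and larger symbols for Rps27l, Rps13 and Rps15a. The cloud sits lowest in the 3 MII libraries with DMSO, while Rps27l is at 146.3 FPKM or above in all 7 libraries and Rps13 goes from 537 and 567 FPKM to at most 2.43.

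The first question was what happens to these mRNAs when oocytes mature without the ligand. Nearly all members fell between the GV stage and MII in DMSO. Summed over the 90 members, FPKM went from 9494 and 9504 in GV to 497, 932 and 1065 in MII with DMSO, 8.75% of the GV mean. The total of all entries stood at 27.0% of its GV mean, so the share of the total held by the members went from 1.94% and 2.36% to 0.453%, 0.754% and 0.837%. The median member had 51.7 FPKM in GV and 0.981 in MII with DMSO, and 46 members were under 1 FPKM there against 11 in GV.

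Of the 78 members tested, 76 fell, 1 rose and 1 did not pass the test (limma on log2(FPKM + 1) across 9202 entries, adjusted p under 0.05), and 12 were too low to test. Among all entries tested 88.3% were called lower and 0.272% higher, so most of the transcriptome moved the same way. Values of GV and MII with DMSO did not overlap in the lower direction for 76 members, against 92.5% of all entries, and in the higher direction for 1, against 0.315%. The median log2 change was -4.02 for the members and -1.83 for all entries tested. All 45 tested large subunit members fell, with a median of -4.12, and 31 of 33 small subunit members fell, with a median of -4.02. Setting every library to the same total left 70 lower and 2 higher with a median of -2.58, and centring each library on its median left 62 lower and 6 higher with a median of -1.72. The shares of all entries called under these 2 scalings were not computed, so the shares above are no background for these counts. The 6 higher include Rps7, which was at most 0.0101 FPKM with DMSO.

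The members did not fall by the same factor. Among the 68 members of at least 10 FPKM in GV, the level left in MII with DMSO had a median of 1.78% of the GV mean and quartiles of 0.885% and 6.43%. Of these, 19 members were under 1% and 59 under 10%, and 3 (Rpl7a, Rpl19 and Rps19, named after their values were seen) were listed at 0 in all 3 libraries. The medians of the 38 large and 30 small subunit members were 1.78% and 2.21%.

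Rps13, which sits on the small subunit near the bridge to the large one, had the largest fall on the log2(FPKM + 1) scale. As a percentage of GV, 5 others of the 68 members kept less, namely Rpl7a, Rpl19 and Rps19 at 0%, Rps27 at 0.0465% and Rpl12 at 0.208%. It had 537 and 567 FPKM in GV and 1.598, 2.43 and 0.774 in MII with DMSO, which was 0.290% of the GV mean. Its log2 change was -7.78 ± 0.30 (SE, adjusted p = 2.45e-10), and every MII library was far below both GV libraries. The MII values rested on about 58.6, 78.6 and 26.5 fragments. The next largest log2 changes were those of Rpl24 with -6.49, Rps9 with -6.48, Rpl23a and Rps4x with -6.43 each, and Rpl6 with -6.24. Rpl24 went from 146 and 158 FPKM to 0.374, 1.01 and 0.795. Rps4x, the X-linked form of a small subunit protein, went from 125 and 121 FPKM to 0.298, 0.680 and 0.367. Both kept under 0.5% of the GV mean, and the groups were far apart.

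Rps27l stood apart at the other end. It encodes a close paralog of Rps27 and is known as a p53 target gene, and in GRCm38 it lies on chromosome 9 from 66946086 to 66949516 on the plus strand. It had 146.3 and 146.5 FPKM in GV and 155, 332 and 334 in MII with DMSO, so no MII library was below a GV library. Its log2 change was 0.81 ± 0.36 (SE, adjusted p = 0.0464). The rise was not stable: without GV replicate 1, GV replicate 2, MII replicate 2 or MII replicate 3 in turn, adjusted p was 0.197, 0.184, 0.134 and 0.124, and with no filter on level it was 0.158. Its distance from the other members was larger. Its log2 change lay 5.72 ± 0.27 above the shift of the median member level between libraries, which was -4.90 (adjusted p = 2.14e-11). The median of the members' own log2 changes was -4.02. Because the others fell, Rps27l held 1.54% of the FPKM of the members in both GV libraries and 31.3%, 35.6% and 31.3% in the MII libraries with DMSO, where it was the highest member.

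Rps15a, a small subunit protein, was the member without a call. It had 10.6 and 11.2 FPKM in GV and 5.13, 10.9 and 9.58 in MII with DMSO, a log2 change of -0.37 ± 0.30 (SE, adjusted p = 0.249). The GV and MII values overlapped. With libraries set to the same total its change was 1.33, and with median centring it was 1.93, both past the threshold in the higher direction.

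Other members kept a larger part of their level than most. Rplp2, an acidic protein of the stalk that recruits translation factors, had 220 and 252 FPKM in GV and 43.2, 111 and 110.4 in MII with DMSO, 37.3% of the GV mean. Rps28 stayed at 36.9%, Rpl22 at 29.6% and Rpl37a at 43.3% of the GV mean. Their log2 changes were -1.53 ± 0.40 for Rplp2, -1.44 ± 0.35 for Rps28, -1.58 ± 0.29 for Rpl22 and -1.09 ± 0.33 for Rpl37a, all called lower. Under the same total and under median centring these 4 changes turned positive. Rplp2 lost its call without GV replicate 2 (adjusted p = 0.0540) and Rpl37a without GV replicate 1 (adjusted p = 0.115).

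The members were also tested against the shift of the member median, the difference between the medians of their levels in the libraries. It was -4.90 on the log2 scale over the 78 tested members, below their median log2 change of -4.02. More members thus lay above this reference before any test, and the split of the counts partly reflects that choice. In the test 15 members lay below the shift and 43 above it, the latter including Rps27l and Rps15a. Among all entries tested, 2% lay below that shift and 91.8% above it. Those with the smallest adjusted p in the first direction were Rps13, Rps4x, Rpl24, Rpl23a and Rps9, and in the second Rps27l, Rps15a, Rpl37a, Rpl22 and Rps28. With 1 FPKM added before taking logs a weakly expressed member cannot fall far: across 76 tested members with an annotated transcript the log2 change had a Spearman rho of -0.53 with the GV mean, and with 0.1 added instead the counts were 21 and 29. Relative to GV itself, over the 66 members of at least 10 FPKM with an annotated transcript, the part kept had a rho of 0.18 with the GV mean. The share of unique windows had a rho of 0.31 with the part kept. Over the 76 members it had a rho of 0.36 with this log2 change and -0.31 with that from MII with DMSO to BYBX. The part of read mapping in the differences between members was not tested.

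**Figure D2:**
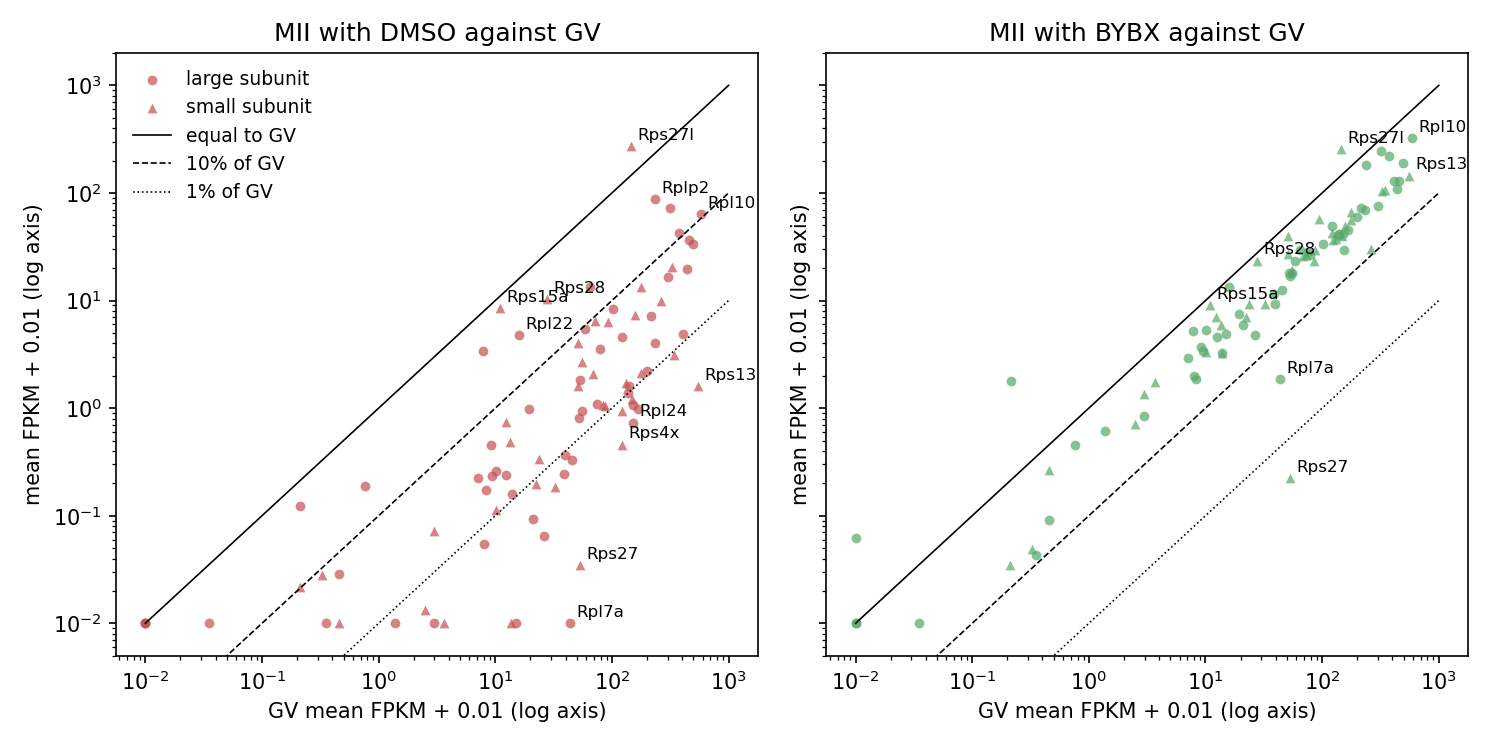
Group mean of each member in MII with DMSO (left) and MII with BYBX (right) against its GV mean, both plus 0.01 FPKM on log axes, with circles for the large and triangles for the small subunit and lines at 100%, 10% and 1% of GV. On the left the points spread over more than 2 orders of magnitude below the line of equality with Rps27l alone well above it, and on the right most members lie between the 100% and 10% lines.

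The ends of the mRNAs are shown for the members at the 2 extremes, because cytoplasmic polyadenylation is directed by elements in the last part of the 3′ UTR. The last 150 bases of each chosen GENCODE vM21 transcript were searched on the sense strand for TTTTAT and TTTTAAT, 2 forms of the cytoplasmic polyadenylation element, and the last 50 bases for the polyadenylation signals AATAAA and ATTAAA. At least 1 element was present in 10 of 86 members (11.6%) and in 26.0% of 8671 other tested genes. Most members have a 3′ UTR shorter than 150 bases, so the window reached into their coding sequence and the 2 shares compare unlike sequence. A polyadenylation signal was present in 74 members (86.0%) and in 78.6% of the others. Rps27l was the 1 member with both elements, at 67 and 12 bases from the end of the transcript, and no match was found in Rps13. The element at 12 bases lies after the polyadenylation signal. Among the other members described above as keeping a larger part, Rpl37a had an element and Rps15a, Rplp2, Rps28 and Rpl22 had none. In the 30-base stretches below, read 5′ to 3′, capitals mark an element or a polyadenylation signal.
Rps27l, around the distal element: ttgtttgaTTTTATaaagtctacaacaatg
Rps27l, last 30 bases: gtcagtttttcAATAAAgTTTTAATtatgg
Rps13, last 30 bases: caagcAATAAAatcactttgagtaacttgg
Rpl24, last 30 bases: gttggaAATAAAgctctatctttaactcta

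Among members of at least 10 FPKM in GV, the 9 with an element kept a median of 3.81% of their GV mean in MII with DMSO, with a range of 0.843% to 187%, and the 57 without one kept 1.45%, with a range of 0% to 78.5%. The ranges overlapped almost entirely, and the other members with an element were Rpl13a, Rpl27a, Rpl31, Rpl32, Rpl37a, Rpl5, Rps2, Rps24 and Rps3a1, all of which were called lower. The 3′ UTRs of the members were short, with a median of 87 bases against 888 in other tested genes. A sequence able to form a G-quadruplex (4 runs of at least 3 G with loops of 1 to 7 bases) was found in the transcripts of Rpl12, Rpl27 and Rps10, which is 3 of 86 (3.49%), and in 17.2% of the other genes. These 3 members stood at 0.208%, 5.05% and 4.79% of GV in MII with DMSO. The search covered whole transcripts, whose median length was 802 bases in members and 2810 in the other genes. The part of length in the lower share was not tested. A match is a description of the annotated transcript, and the form present in these oocytes was not tested.

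The starts of the genes are shown because the TOP tract begins there. The window of 10 bases before to 20 after the RefSeq start (GRCm38.p6) was available for 69 members, and a run of at least 8 C or T on the sense strand was present in 26 of them (37.7%), against 13.1% of other tested genes. A run anywhere in the window counted, and for a gene with several starts the one with the longest run was taken. The starts used in these oocytes were not tested, so these shares do not count TOP tracts themselves. In the windows below, on the strand given, capitals mark the longest such run.
Rpl27a, chr7:109519185-109519214, plus strand: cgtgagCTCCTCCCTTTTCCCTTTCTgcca
Rpl35, chr2:39005112-39005141, minus strand: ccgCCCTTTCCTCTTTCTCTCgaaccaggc
Rps15a, chr7:118116128-118116157, minus strand: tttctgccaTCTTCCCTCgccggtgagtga
Rps27l, chr9:66946076-66946105, plus strand: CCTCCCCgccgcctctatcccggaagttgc
Rps13, chr7:116334171-116334200, minus strand: caaacgtcggtgagtggcgtcaCTTCCTgt
The run was 20 bases long in Rpl27a, 18 in Rpl35, 9 in Rps15a, 7 in Rps27l and 6 in Rps13. Among members of at least 10 FPKM in GV, the 20 with a run of at least 8 kept a median of 1.57% of GV in MII with DMSO and the 34 without it 3.43%, and with BYBX both were close, at 32.8% and 33.7%.

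**Figure D3:**
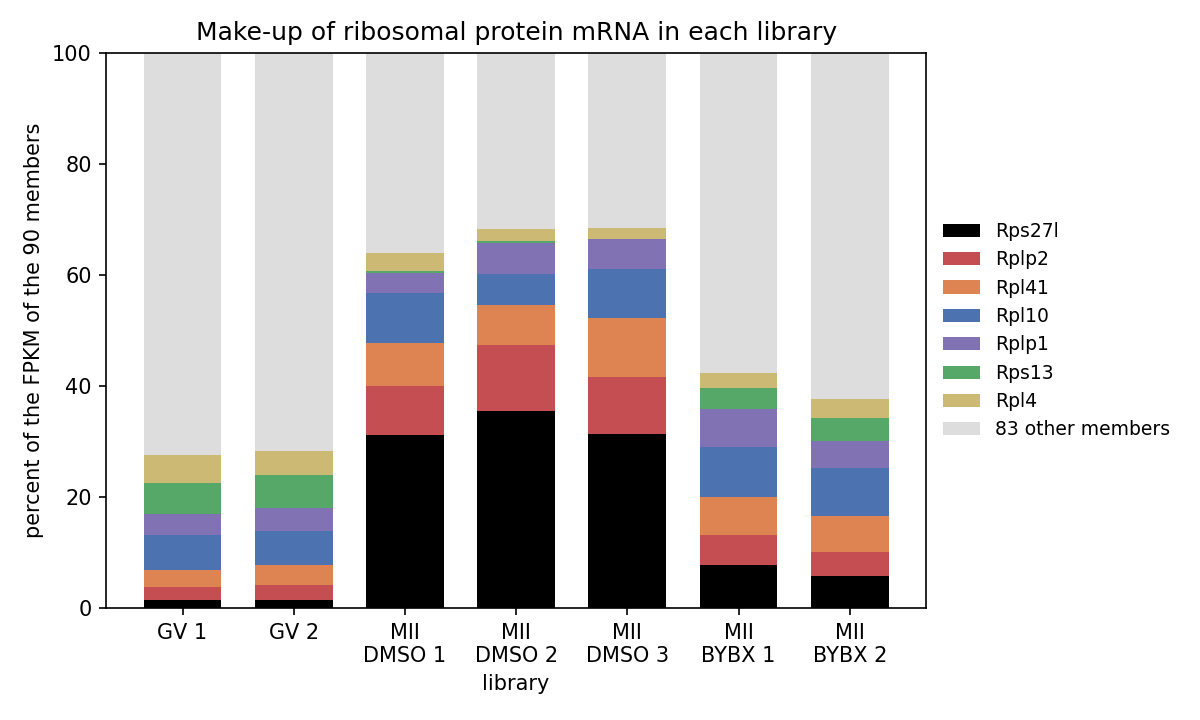
Share of the summed FPKM of the 90 members taken by 7 of them in each library, as stacked bars in percent, with the other 83 members in grey. Rps27l takes 31.3% to 35.6% in MII with DMSO, 5.87% to 7.71% in MII with BYBX and 1.54% in GV, and Rps13 takes 5.65% to 5.97% in GV and at most 0.322% in MII with DMSO.

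The second question was how the same mRNAs stood in MII oocytes cultured with BYBX. Most members were several-fold higher than in MII oocytes with DMSO. The summed FPKM was 4367 and 2942 with BYBX, 4.40 times the mean with DMSO, while the total of all entries was 1.86 times as high. The share of the total in the members was 1.77% and 1.46%, above the highest library with DMSO. The median member had 17.96 FPKM, 50 members were at or above 10 FPKM against 13 with DMSO, and 14 were under 1.

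Of the 78 members tested, 74 were higher with BYBX, none was lower and 4 did not pass the test, against 65.2% and 0.0326% of all entries called higher and lower. No tested member was below every DMSO library in both BYBX libraries, against 0.293% of all entries, and 75 were above all of them, against 79% of all entries. The median log2 difference was 2.44 for the members and 0.84 for all entries tested. Libraries set to the same total gave 68 higher and 1 lower with a median of 1.96, and median centring gave 56 higher and 3 lower with a median of 1.16. The shares of all entries under these scalings were not computed, and the 3 lower include Rps7, which was near 0 FPKM with DMSO. The 4 members without a call were Rps27l, Rps15a, Rpl37a and Rps27. Rpl37a was called without MII replicate 3 with DMSO (log2 difference 0.86, adjusted p = 0.0319).

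Rps13 had the largest rise on the log2(FPKM + 1) scale, to 169.6 and 120.2 FPKM, which was 26.2% of its GV mean. Its log2 difference from MII with DMSO was 5.84 ± 0.30 (SE, adjusted p = 2.42e-08). Rps9 followed with a log2 difference of 4.76, Rps4x with 4.70, Rpl24 with 4.62, Rpl23a with 4.55 and Rpl35 with 4.52. All but Rpl35 were also among the 6 with the largest fall between GV and MII with DMSO, but both comparisons use the same 3 libraries with DMSO.

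Rps27l was at 336 and 173 FPKM with BYBX and 155, 332 and 334 with DMSO, so the groups overlapped. The log2 difference was -0.10 ± 0.36 (SE, adjusted p = 0.811), and it turned to -0.99 (adjusted p = 0.0234) at the same total and to -1.38 (adjusted p = 0.00728) under median centring. Rps15a had 10.8 and 7.36 FPKM with BYBX, also inside the range of the DMSO libraries. Its log2 difference was 0.11 ± 0.30 (SE, adjusted p = 0.741), and it was -1.16 under median centring. Rpl13a, Rplp2 and Rps28 had called differences of 1.06 ± 0.27, 1.08 ± 0.40 and 1.17 ± 0.35 (SE), each of which was negative under median centring. Without BYBX replicate 1 these 3 fell to 0.75, 0.60 and 0.81 and were no longer called, and Rplp2 was also not called without MII replicate 1 with DMSO (0.63) or without either GV library.

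Among weakly expressed members, Rps7 went from at most 0.0101 FPKM with DMSO to 0.467 and 0.930 with BYBX, and Rpl35a from 0 in all 3 libraries to 1.06 and 0.612. Their log2 differences of 0.75 and 0.87 were called higher but were among the smallest, as 1 FPKM was added before taking logs. Both turned negative under median centring, which was done after the 1 FPKM was added. That sign does not mean fewer FPKM with BYBX. The shift of the member median was 3.45, above the members' median log2 difference of 2.44, so more members lay below it before any test. Tested against this shift, 12 members lay above it and 48 below it, where 1.13% and 93.9% of all entries did so. With 0.1 FPKM added instead, the counts were 9 and 30. Without BYBX replicate 1, 7 members lay above it.

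Levels relative to GV were also compared member by member. Over the 68 members of at least 10 FPKM in GV, the level with BYBX had a median of 32.6% of the GV mean, with quartiles of 28.3% and 39.9%. Put as a position between MII with DMSO (0%) and GV (100%), the 67 members that were lower in MII with DMSO had a median of 30.4% and quartiles of 26.8% and 35.5%, and 50 of them lay from 20% to 40%. Another 12 members lay above that range, among them Rps27rt at 76.5% with its uncertain GV level, Rpl22 at 76.3%, Rps28 at 74.8%, Rplp2 at 62.9% and Rpl10 at 49.8%. Rps2, Rpl6, Rpl12, Rpl7a and Rps27 lay under 20%, of which Rps2, Rpl12 and Rpl7a were named after their values were seen. Rps2, which lies near the mRNA entry channel of the small subunit, had 27.9 and 32.5 FPKM with BYBX against 267 and 257 in GV and 4.66 to 17.6 with DMSO, a position of 8.02%.

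**Figure D4:**
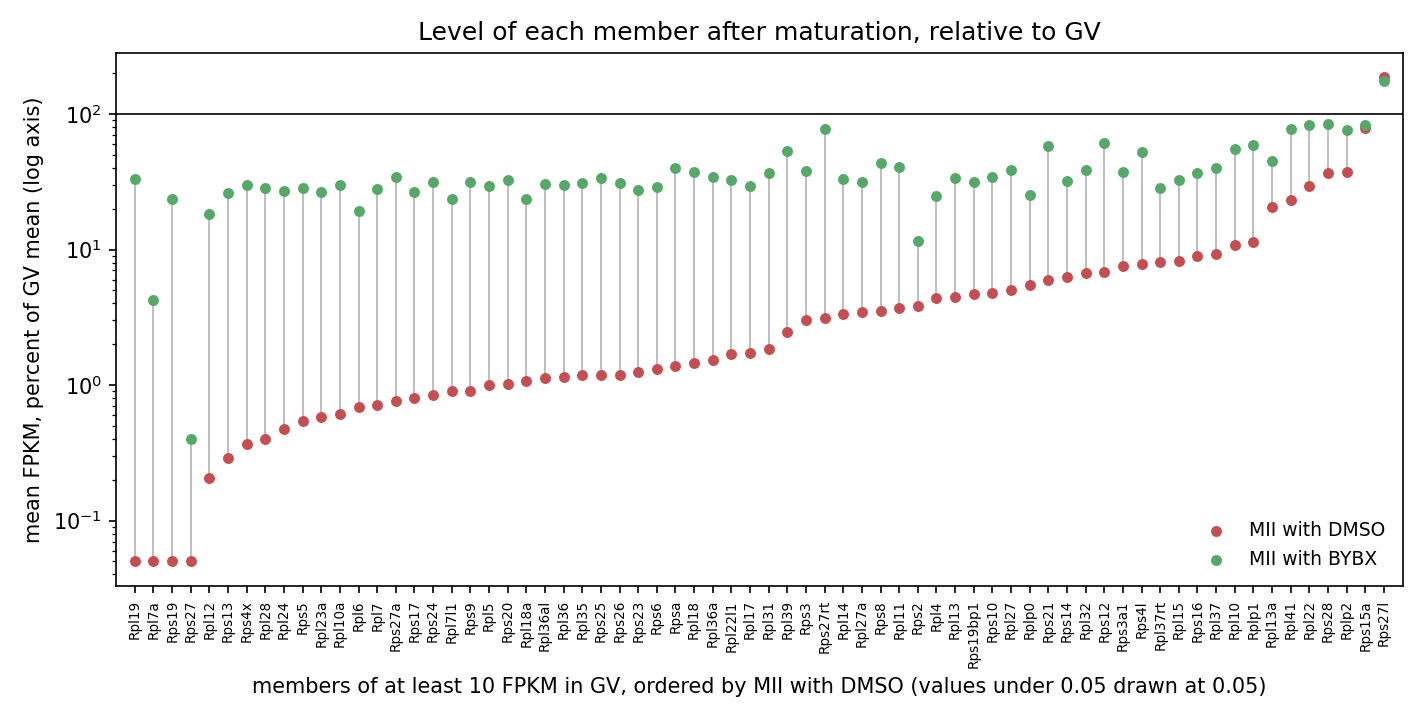
Mean level of each of the 68 members of at least 10 FPKM in GV as a percentage of its GV mean on a log axis, in MII with DMSO (red) and MII with BYBX (green), joined by a grey line and ordered by the level with DMSO, with values under 0.05 drawn at 0.05. The red points run from 0% to 187% while most green points lie between 20% and 50%, and the 2 points of Rps27l and those of Rps15a nearly coincide.

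In the direct comparison of MII with BYBX and GV, 67 of the 78 members were lower, none was higher and 11 did not pass the test, with 69.2% of all entries called lower and 0.315% higher. The median log2 difference was -1.56 for the members and -0.99 for all entries. Values did not overlap in the lower direction for 69 members, where 82.3% of all entries did so, and in the higher direction for 1, Rps27l, where 0.848% did so. The count of 67 depended on the scale, as 11 members were lower and 1 higher at the same total, and 16 lower and 1 higher under median centring. For these scalings the shares of all entries were not computed. The 11 members without a call were Rps27l, Rps15a, Rpl22, Rpl37a, Rplp2, Rps28, Rpl41, Rplp1, Rps12, Rps21 and Rps27rt. Rps27l had a log2 difference of 0.72 ± 0.39 (SE, adjusted p = 0.119), which was called higher without BYBX replicate 2 (1.20, adjusted p = 0.0248) and without MII replicate 1 with DMSO (adjusted p = 0.0403). Rpl10 had 390.4 and 256 FPKM with BYBX, all below GV, with a difference of -0.89 ± 0.35 (SE, adjusted p = 0.0363) that was not called without either GV library or without BYBX replicate 2.

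The 2 libraries with BYBX differed in level more than the GV libraries did. BYBX replicate 1 was higher than replicate 2 in 56 of the 68 members. The order of the members was similar between them (Spearman rho 0.98) and between the GV libraries (0.95), and among the 3 libraries with DMSO it was 0.95 to 0.96. Between group means the order of GV had a rho of 0.93 with BYBX and 0.68 with DMSO. These values describe 68 genes that share libraries and are not tested.

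Several ribosomal proteins have a second gene, and the 2 copies did not always move together. Rpl22l1 encodes a paralog of Rpl22, and the proteins are known to affect each other's expression. Rpl22l1 had 57.1 and 53.3 FPKM in GV, 0.637, 1.52 and 0.627 in MII with DMSO and 21.9 and 14.2 with BYBX. Rpl22 had 17.0 and 15.0, then 3.47, 5.57 and 5.14, and then 17.4 and 9.24. The level of Rpl22l1 was thus 3.37 and 3.56 times that of Rpl22 in GV, 0.122 to 0.274 times in MII with DMSO and 1.26 and 1.54 times with BYBX. The ratio did not overlap between any of these groups, and the exact permutation test over libraries gave p = 0.1 for DMSO against GV, the smallest that 3 against 2 libraries allow. The test used the differences of log2(FPKM + 1) between the 2 genes. Of the windows of Rpl22l1 50.4% and of Rpl22 93% were unique, so the size of the ratio is uncertain.

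Rps4l and Rps4x showed the opposite order. Rps4l had 52.5 and 49.5 FPKM in GV, 2.37, 3.60 and 5.98 in MII with DMSO and 28.0 and 25.7 with BYBX. Its level was 0.419 and 0.411 times that of Rps4x in GV, 5.30 to 16.3 times in MII with DMSO and 0.704 and 0.767 times with BYBX (exact permutation test, p = 0.1 for DMSO against GV and for BYBX against DMSO, the smallest possible). The test used the differences of log2(FPKM + 1) between the 2 genes, with means of -1.25 in GV, 1.73 with DMSO and -0.43 with BYBX. The values of Rps4x with DMSO rested on about 18.1, 36.4 and 20.8 fragments. Of the windows of Rps4x 47.1% were unique, and Rps4l had no annotated transcript to compare.

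Rpl36al exceeded Rpl36a in every library, by 3.70 to 3.87 times in GV, 2.04 to 5.62 times with DMSO and 2.93 to 3.74 times with BYBX. Of the windows of Rpl36al 61.9% and of Rpl36a 15.4% were unique, so the size of this ratio is uncertain. Rpl7l1, whose product acts in ribosome assembly rather than in the ribosome, was 0.570 to 2.15 times as high as Rpl7 with DMSO and 0.696 and 1.05 times as high in GV. Rpl39l, known from testis, had 8.18 and 8.39 FPKM in GV, close to the 9.78 and 10.5 of Rpl39, and 1.27 and 2.40 against 4.84 and 5.88 with BYBX. Rpl10l was at most 0.848 FPKM and Rpl3l at most 0.0496, and neither was tested, while Rpl3 went from 10.2 and 5.82 FPKM in GV to at most 0.0899 with DMSO. Rps3a1, a small subunit protein, went from 187 and 169 FPKM to 9.46, 15.9 and 14.9 and then to 81.3 and 52.3. Rps27l was above Rps27 in every library, by 1.39 and 91.1 times in GV and by 1104 times or more in the MII libraries, but with 1.48% unique windows and disagreeing GV values the level of Rps27 is uncertain. Rps19bp1, which is no ribosomal protein, had a log2 change of -4.33 ± 0.34 (SE) from GV to MII with DMSO and 2.68 ± 0.34 from there to BYBX, both called.

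**Figure D5:**
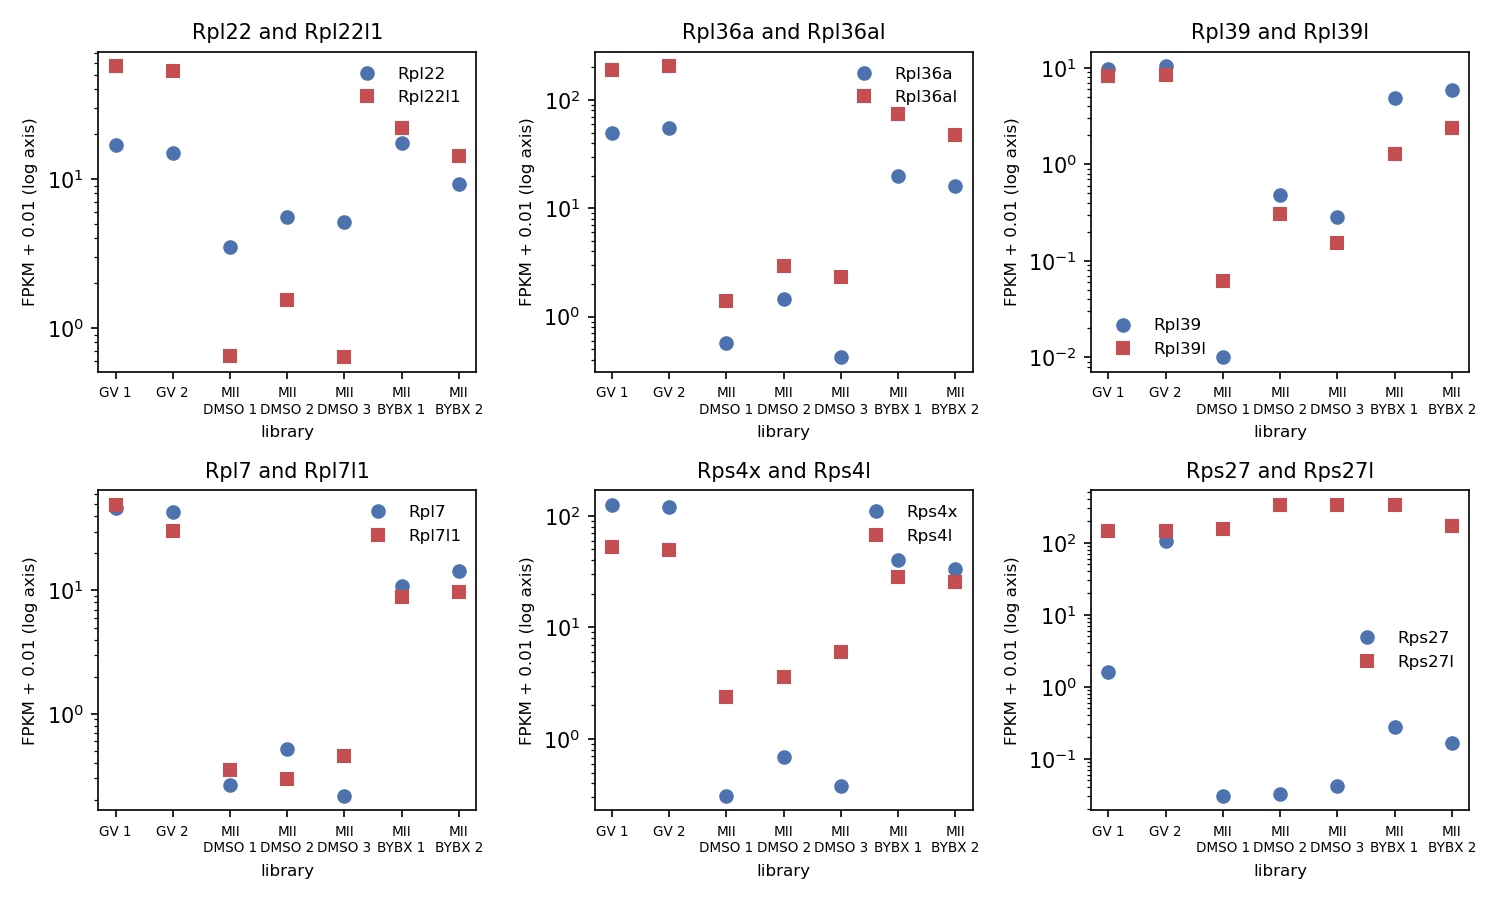
FPKM + 0.01 on log axes in each of the 7 libraries for 6 pairs of ribosomal protein genes, with the parent gene as circles and its paralog as squares. Rpl22l1 lies above Rpl22 in GV and with BYBX and below it in all 3 libraries with DMSO, Rps4l lies below Rps4x except with DMSO, and Rps27l is at 146.3 FPKM or above throughout.

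Fau and Rack1, whose names the pattern does not match, moved in the same directions. Both entries of Fau and the entry of Rack1 fell from GV to MII with DMSO and were higher with BYBX than with DMSO. The main entry of Fau, which encodes a ubiquitin-like protein fused to a small subunit protein, had 197 and 186 FPKM in GV, 3.50, 6.53 and 5.996 with DMSO and 81.2 and 54.8 with BYBX. Rack1, a scaffold protein on the small subunit, kept more, with 68.1 and 64.9 in GV, 20.6, 25.7 and 22.4 with DMSO and 43.6 and 33.0 with BYBX.

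Of 20 other genes with TOP mRNAs, 19 were tested. From GV to MII with DMSO 18 fell and none rose, with a median log2 change of -2.81, and with BYBX 13 were higher than with DMSO and none lower, with a median of 1.56. Over all entries 88.3% were called lower in the first comparison and 65.2% higher in the second, so the 13 of 19 were close to the share of all entries. Eef1a1, the factor that brings aminoacyl-tRNA to the ribosome, had 1554 and 1243 FPKM in GV, 20.2, 20.8 and 26.2 with DMSO and 318 and 387 with BYBX. Npm1, a nucleolar chaperone, had 296 and 281, then 100.1, 150.1 and 165, and then 239 and 185. The 1 TOP gene tested without a call between GV and MII with DMSO was Nap1l1, a histone chaperone. Of 11 genes for regulators of TOP mRNAs and S6 kinases 8 were tested, 7 fell from GV to MII with DMSO and 4 were higher with BYBX, counts near or below the same 88.3% and 65.2%, and Larp1 was too low to test at 0.633 and 0.762 FPKM in GV.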

How the data were processed

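Smart-seq2 libraries of GV oocytes (2), MII oocytes with DMSO (3) and MII oocytes with BYBX (2) were grouped by their sample labels. Per the labels and the study's methods, the authors trimmed reads with Trim Galore 0.6.7, aligned them to mm10 with HISAT2 2.2.1 and computed FPKM from uniquely mapped reads with Cufflinks 2.2.1. The authors scaled these FPKM by ERCC spike-in RNA, using GV oocytes as the common reference across batches, and deposited a file for each library. Their factors are not given in the sources used here. Read totals were not given either. The worth of 1 fragment was estimated from the commonest ratio of values under 0.05 FPKM between libraries and from genes with 1 annotated transcript, and estimates for short transcripts are upper ones.

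Of 25912 entries 4 with a missing value, none a member, were left out. The 9202 entries whose 3 group means averaged at least 1 FPKM were tested on log2(FPKM + 1) with limma 3.58.1 in R 4.3.3, with 3 group means over 7 libraries (4 residual degrees of freedom), an intensity trend and Benjamini-Hochberg adjustment, and an adjusted p under 0.05 was a call. All fold changes are on this scale, which understates those of low genes. A further fit tested each entry after subtracting the median log2 value of the 78 tested members from each library. In simulated data with 200 changed genes among 9202, 81% were recovered for MII with DMSO against GV. In the real data 88.3% of entries were called lower in that comparison, so the rate does not give its power. P-values measure the spread between these libraries, and nothing in the labels says whether they came from separate mice.

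Named members were, for each of the first 2 contrasts, the 6 with the largest and smallest changes and the 5 with the smallest adjusted p in each direction against the member median, with the 5 highest and 5 lowest tested in GV, paralog pairs, members called in no contrast, Rps19bp1 and the genes of 3 lists, of which 1 gene is not reported here. Any other member was named after its values were seen. The members and lists were chosen with earlier results of these data known. Transcripts are from GENCODE vM21 (GRCm38, which is mm10), 1 protein-coding transcript per gene chosen by its basic, APPRIS, support-level and CCDS tags, and gene starts are from RefSeq GRCm38.p6. The 4 members Rpl32l, Rpl37rt, Rps23rg1 and Rps4l had no such transcript. Alternatives were another pseudocount, other filters, 2 other scalings, a replicate block, fits without the trend or on 2 groups, and leaving out each library.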

Additional observations from a re-analysis of the deposited data

How the results depend on the processing

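The scaling mattered most. With each library set to the same total FPKM, 11 members were lower in MII with BYBX than in GV in place of 67, and with median centring 16. The median log2 changes were then -2.58 and -1.72 from GV to MII with DMSO, 1.96 and 1.16 from there to BYBX, and -0.60 and -0.53 between BYBX and GV. At the same total the summed FPKM of the members stood at 0.317 (MII with DMSO to GV), 2.37 (BYBX to DMSO) and 0.751 (BYBX to GV), and the median position between MII with DMSO and GV over members of at least 1 FPKM in GV was 58.8% in place of 30.7%. The cause was not tested. With 0.1 FPKM added before taking logs the median changes were -5.10 and 3.65, and 39 members in place of 60 were apart from the member median between BYBX and DMSO. With a filter of 5 FPKM the first median was -4.30. Without the 5 most abundant members (Rpl10, Rps13, Rps27l, Rplp1 and Rpl32) the BYBX to DMSO ratio of sums was 6.04 in place of 4.40, and the members held 1.66%, 0.342% and 1.12% of the total in GV, MII with DMSO and MII with BYBX, since fewer members were summed.

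Single members changed sign under these scalings. Median centring was done after 1 FPKM was added and logs were taken, so it also shifts a member near 0 FPKM. Rpl35a, Rpl39l, Rps15, Rps29 and Rps7 were at most 0.297 FPKM with DMSO. For them the signs of changes that involve DMSO under median centring do not give the direction of the FPKM. At the same total the changes from GV to MII with DMSO were 0.10 for Rpl22, 0.45 for Rpl37a, 0.34 for Rplp2, 1.33 for Rps15a and 0.33 for Rps28, and between BYBX and GV they were 0.10 for Rpl10, 0.062 for Rpl39 and 0.063 for Rps4l. With median centring the changes from GV to MII with DMSO were 0.091 for Rpl13a, 0.72 for Rpl22, 0.34 for Rpl35a, 1.21 for Rpl37a, 0.77 for Rplp2, 0.44 for Rps15, 1.93 for Rps15a, 0.86 for Rps28, 0.10 for Rps29 and 0.52 for Rps7. Between BYBX and DMSO they were -0.22 for Rpl13a, -0.41 for Rpl35a, -0.017 for Rpl39l, -0.20 for Rplp2, -0.21 for Rps15, -1.16 for Rps15a, -0.11 for Rps28 and -0.53 for Rps7, and between BYBX and GV 0.14 for Rpl10, 0.22 for Rpl39, 0.23 for Rps15, 0.27 for Rps29 and 0.12 for Rps4l.

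Leaving out 1 library at a time gave 74 to 76 members that fell from GV to MII with DMSO, 71 to 75 higher with BYBX than with DMSO and 61 to 69 lower with BYBX than in GV. It gave ratios of sums of 0.0752 to 0.105, 3.54 to 5.25 and 0.310 to 0.460, and a median position of 26.1% to 35.6%. With the replicate number as a block the counts were 76, 73 and 67, and Rps27l lost its call (log2 change 0.63, adjusted p = 0.163). The labels do not say what the numbers share, and deviations of same-numbered libraries correlated at 0.49 and 0.28 for MII with DMSO and GV, at -0.60 and -0.35 for BYBX and DMSO and at -0.33 for BYBX and GV. With the BYBX numbers crossed, an alternative added after seeing the data, 70 members were lower and 1 higher in BYBX than in GV. Restricting the members to the 48 tested with at least 50% unique windows, also added later, gave medians of -3.91, 2.35 and -1.52. Calls for 9 to 13 members in MII with DMSO rest on under 3 fragments.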
